A study of Saccharomyces cerevisiae with 2 samples.

Results

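The genes described here encode SUN family proteins and other secreted wall proteins of the budding yeast Saccharomyces cerevisiae. Several of them, but not all, are known to act in the separation of mother and daughter cells. They were chosen as a named family and function, by a rule that uses no measured value: the SUN family (SUN4, YNL066W; SIM1, YIL123W; UTH1, YKR042W; NCA3, YJL116C), the glucanase-like soluble cell wall proteins SCW4 (YGR279C), SCW10 (YMR305C) and SCW11 (YGL028C), and the daughter-specific or septum genes DSE2 (YHR143W), DSE4 (YNR067C) and EGT2 (YNL327W). These 10 open reading frames were taken from the 6207 gene features of the arrays. Values on both arrays were present for 7 of them, while SCW10, DSE4 and EGT2 had no value on either array. Of all features 44.1% had a value on both arrays.

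The RNA came from a mid2 mutant of BY4741, a haploid a-type laboratory strain, grown in rich YEPD medium at 24 °C. One part of the culture received 30 µg/ml Congo Red, which attaches to chitin and glucan chains and hinders wall assembly, and the other part none, and cells were taken at 4 h. Both RNAs of each array therefore came from the strain mutated in MID2, the gene of a wall stress sensor, and no wild-type array was analysed here. Each of the 2 arrays set treated against untreated RNA, with treated RNA in Cy3 on array 1 and in Cy5 on array 2. Whether these arrays hold 1 culture or 2 is not stated, so the spread between them may be technical, and precision is limited by having so few arrays.

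Budding yeast closes the neck between mother and daughter with a chitin disc, the primary septum, and then lays secondary septa of glucan and mannoprotein on both sides. The daughter cell digests this seal from its own side with chitinase and glucanases, and cells that cannot do so stay attached in clumps. CTS1, DSE1, DSE2, DSE4 and SCW11 are turned on in the daughter as cells leave mitosis, under the control of the Cbk1 kinase network, while the transcription factor Swi5 acts in both cells and drives EGT2. SUN proteins share a cysteine-containing domain at the carboxyl end and sit in the wall. Scw4, Scw10 and Scw11 belong with Bgl2 to one family of glucanases and transglycosylases.

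The deposited values were log2 ratios, and a value of 1 is a 2-fold difference between the RNAs on an array. Which RNA is the numerator is not stated. The columns correlated positively across 2738 features with a value on both arrays (Pearson r = 0.48, Spearman rho = 0.34, features not being replicates), and this despite the swap of dyes. This bears only on whether both columns run the same way. A positive ratio is read as higher with Congo Red from the repository's convention of test over reference, which does not settle it. If both columns were untreated over treated, every direction would be the opposite, and SUN4 and SCW4 would be at 0.324 and 0.488 of their untreated level. Ratios kept as Cy5 over Cy3 on both arrays would place the treatment in the difference between the arrays, that is, in the mean with the sign of array 1 turned, and values under that reading are given for each gene group. The median feature stood at −0.24 in the mean of the arrays, at −0.27 on array 1 and at −0.18 on array 2, so a gene near −0.24 lies in the middle of the array. Under the reading as Cy5 over Cy3 the median feature stood at 0.06. In a mixed culture, a different share of separating cells and a different amount of RNA per cell cannot be told apart.

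SUN4 and SCW4 had the most positive ratios of the genes measured, followed by SIM1. SUN4 averaged 1.63 ± 0.23 (SD, n = 2), a ratio of 3.09-fold, and SCW4 averaged 1.03 ± 0.37 (SD, n = 2), a ratio of 2.05-fold. The means of SCW11, UTH1 and DSE2 were small and positive, and that of NCA3 was negative at −0.54 ± 0.70 (SD, n = 2). None of the 7 passed the moderated test of limma at a Benjamini-Hochberg adjusted p under 0.05, as was true of all features (0% called), and the smallest adjusted p of any feature was 0.123. Without adjustment 3 of the 7 had p under 0.05 with limma, SUN4, SCW4 and SIM1, all positive, against 13.6% of all features (6.28% positive and 7.27% negative). A rule of size asked for equal signs, for 1.5-fold or more on each of both arrays, and for 2-fold or more in the mean. It took 2 of the 7 on the positive side, against 4.13% of all features, and 0 on the negative side, against 2.81%.

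**Figure D1:**
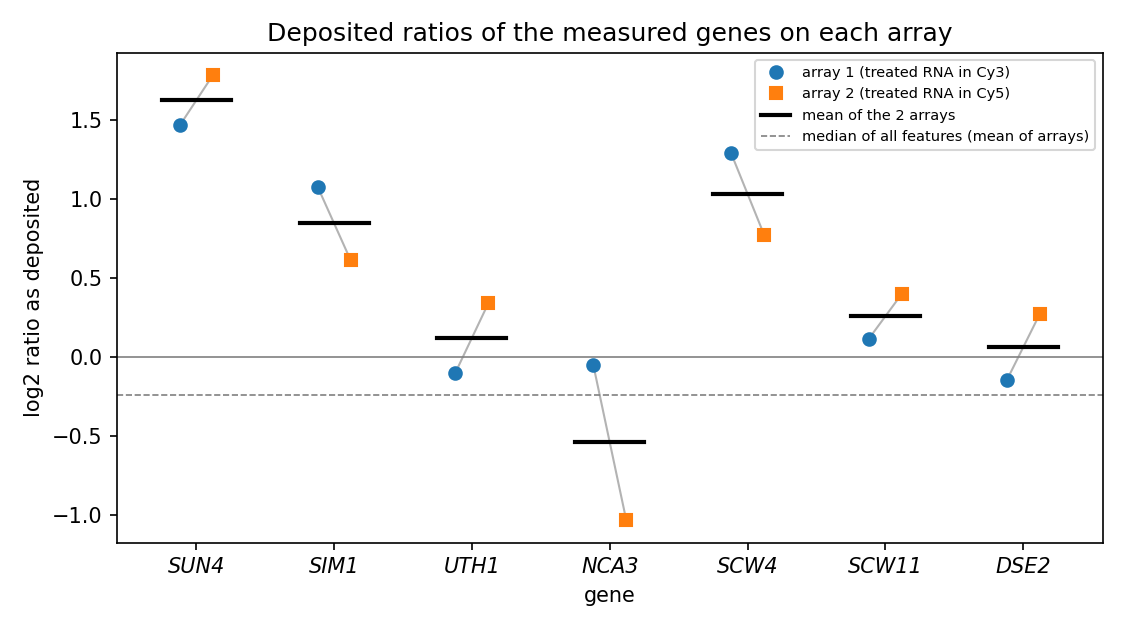
Deposited log2 ratio of each measured gene on array 1 (circles) and array 2 (squares), with the mean of the arrays as a bar and the median of all features, −0.24, as a dashed line. SUN4, SCW4 and SIM1 lie above 0.6 on both arrays, while NCA3 lies near 0 on array 1 and at −1.04 on array 2.

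Within the SUN family the ratios spread over 2.17 log2 units, from NCA3 to SUN4. SUN4, on chromosome XIV, encodes a wall protein of the septum whose loss hampers separation. Its ratio was 1.47 on array 1 and 1.79 on array 2, higher than 95.1% and 98.6% of the 2738 features. Both arrays were thus high and close to each other, their gap of 0.32 being below the median gap of all features, 0.43. The moderated 95% interval of its mean ran from 0.93 to 2.32 (adjusted p = 0.165 with limma). SIM1, on chromosome IX, encodes a further wall-associated SUN protein, first linked to the control of DNA replication. Its ratio was 1.08 on array 1 and 0.61 on array 2, with a mean of 0.85 ± 0.33 (SD, n = 2) or 1.80-fold. Both values were positive and stood above 92.5% and 92.0% of features, but the adjusted p was 0.363 with limma.

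UTH1 and NCA3 lay apart from those relatives. UTH1, on chromosome XI, encodes a wall protein also placed at the mitochondrial outer membrane and known for roles in life span and wall robustness. It had −0.10 on array 1 and 0.34 on array 2, so the arrays disagreed in sign, and the mean was 0.12 ± 0.31 (SD, n = 2). Relative to the median of each array both values were positive, at 0.17 and 0.53. NCA3, on chromosome X, is known for a role in the expression of mitochondrially encoded subunits of ATP synthase. Its value was −0.05 on array 1, above 67.1% of features, and −1.04 on array 2, among the lowest 1.57%. The gap of 0.99 between the arrays exceeded that of 82.5% of features, and the size of the negative mean comes from array 2. Neither gene passed limma, with adjusted p of 0.802 for UTH1 and 0.489 for NCA3.

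Of the Scw glucanase genes, SCW4 and SCW11 had values. SCW4, on chromosome VII, encodes a soluble wall protein of the Bgl2 family that cells need for normal glucan linkage when its close relative Scw10 is also missing. Its ratio was 1.29 on array 1 and 0.77 on array 2, both positive and above 93.9% and 94.3% of features. The moderated 95% interval of the mean was 0.29 to 1.78 (adjusted p = 0.333 with limma). SCW4 and SCW10 are similar in sequence, and cross-hybridisation between their transcripts cannot be separated on a spotted feature, the same being true in principle among the SUN genes. SCW11, on the same chromosome, is the family member expressed in daughters. It had 0.12 on array 1 and 0.40 on array 2, positive on both arrays but with a mean of only 0.26 ± 0.20 (SD, n = 2; limma, adjusted p = 0.609). SCW4 exceeded SCW11 by 1.18 on array 1 and by 0.37 on array 2.

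Among the daughter-specific and septum genes only DSE2 was measured. DSE2, on chromosome VIII, encodes a secreted daughter-specific protein that helps to break down the septum. Its ratio was −0.15 on array 1 and 0.27 on array 2, with a mean of 0.06 ± 0.30 (SD, n = 2; limma, adjusted p = 0.902). The values straddle 0 and resemble those of UTH1, from which they differed by 0.05 and 0.07 on the respective arrays. DSE4, the endoglucanase of the daughter side, and EGT2, a glycosylphosphatidylinositol-anchored wall protein of early G1, gave no value, and nothing is known here of their response.

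The order of the ratios was the same on both arrays for 6 of the 7 genes: SUN4, SCW4, SIM1, SCW11, UTH1, DSE2. NCA3 fell between SCW11 and UTH1 on array 1 and last on array 2. The range of SUN4 over the arrays (1.47 to 1.79) did not overlap that of SCW4 (0.77 to 1.29). SCW4 overlapped with SIM1 (0.61 to 1.08), and both lay clear of SCW11 (0.12 to 0.40). SCW11, UTH1 and DSE2 overlapped with each other, as did NCA3 with UTH1 and DSE2. With 1 pair of values per gene these ranges are descriptions and not tests.

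**Figure D2:**
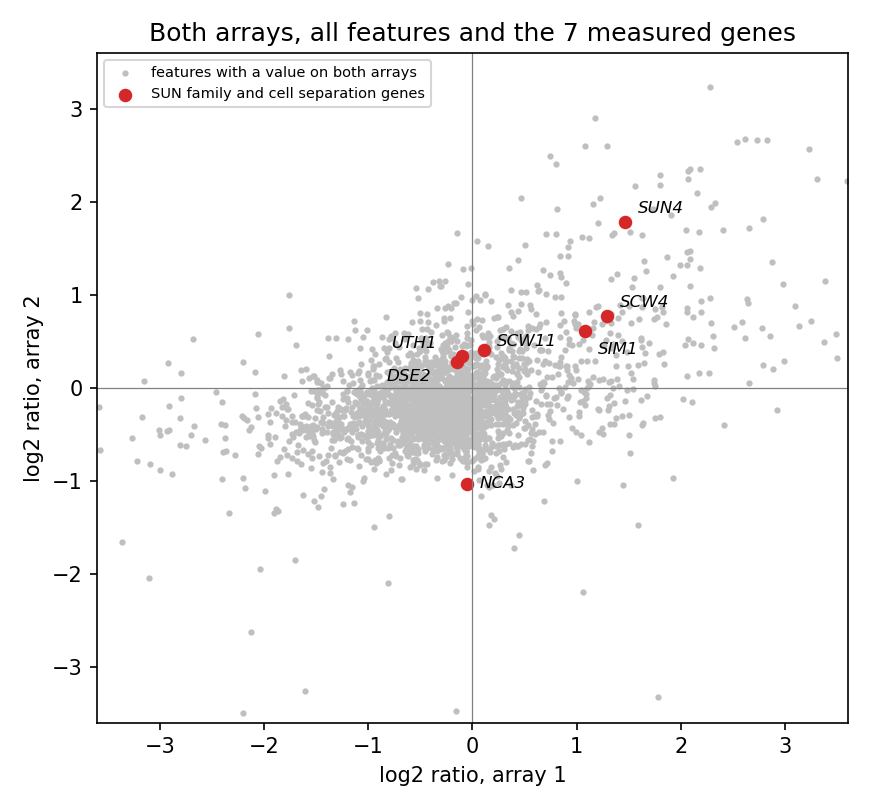
Log2 ratio on array 1 (horizontal) against array 2 (vertical) for the 2738 features with both values (grey) and the 7 measured genes (red), with 24 features outside the axes, which end at 3.6 in each direction. SUN4, SCW4 and SIM1 lie toward the upper right, UTH1, DSE2 and SCW11 near the centre, and NCA3 below it.

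Against the bulk of the array, 6 of the 7 measured genes exceeded the median feature on both arrays, as did 29.3% of features, and the exception was NCA3. Signs differed between the arrays in 2 of the 7, UTH1 and DSE2, and in 29.6% of features. The median of the 7 means was 0.26, while that of all features was −0.24. The features with a gene name nearest to SUN4 over the 2 arrays were SPT16, which encodes a histone chaperone of the FACT complex (1.51 and 1.68 on arrays 1 and 2), UBP15, a ubiquitin protease gene (1.36 and 1.66), and NCP1, encoding the cytochrome P450 reductase (1.34 and 1.64). With 2 values per gene such nearness is a description.

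Other genes switched on at the exit from mitosis, many of them in daughters, were spread widely and did not sit together. Of 14 such genes outside the main set, 9 had values on both arrays, 3 on a single array and 2 on neither. Their median mean ratio was −0.20, close to the −0.24 of all features. On both arrays 5 lay above and 3 below the median feature, against 29.3% of all features on each side. Limma called 0 of them, with 2 positive and 1 negative at an unadjusted p under 0.05, against 6.28% and 7.27% of all features. CTS1, the endochitinase that cuts the primary septum, had 1.51 on array 1 and 0.88 on array 2, which passed the rule of size, with a mean of 1.19 ± 0.44 (SD, n = 2). AMN1, an antagonist of mitotic exit that is made in daughters, averaged 0.88 ± 0.63 (SD, n = 2), with 1.33 on array 1 and 0.43 on array 2. At the other end PRY3, a wall protein expressed in daughters, had −3.10 and −0.82, with a mean of −1.96 ± 1.61 (SD, n = 2), and passed the rule of size on the negative side. PCL2, a G1 cyclin gene, had −1.83 on array 1 and −0.21 on array 2. CTS1 thus stood near SCW4, while the daughter genes SCW11 and DSE2 had smaller means, above 84.2% and 76.6% of features. Read as Cy5 over Cy3, CTS1 was at −0.31, AMN1 at −0.45, PRY3 at 1.14 and PCL2 at 0.81. The median of the 9 was then 0.12, and that of all features 0.06.

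The regulators themselves were hardly measured. SWI5 and the kinase gene CBK1 had no value on either array. HYM1, encoding a scaffold of the Cbk1 network, had a value on array 2 only, −3.49, and so had SSD1, an RNA-binding protein that Cbk1 controls, at −0.25. TAO3, another scaffold, was the single gene of 7 on the array with both values, −0.47 and −0.36, with a mean of 0.06 read as Cy5 over Cy3.

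Septum and cytokinesis genes had negative mean ratios as deposited, with a median close to that of all features. Of 15 genes, 7 had both values, and their median of −0.31 was 0.07 below the −0.24 of all features. On both arrays 0 of them lay above and 5 below the median feature, against 29.3% of all features on each side. Limma called 0, with 0 positive and 1 negative at an unadjusted p under 0.05, against 6.28% and 7.27% of all features. That gene, IQG1, encodes a scaffold of the actomyosin ring and had −1.41 on array 1 and −0.79 on array 2, which passed the rule of size on the negative side. BNI1, a formin gene, averaged −0.60 ± 0.45 (SD, n = 2). The highest were the septin gene CDC10 at −0.21 ± 0.13 (SD, n = 2) and MLC1, a myosin light chain gene, at −0.23 ± 0.57 (SD, n = 2), with opposite signs of 0.18 and −0.63 on the arrays. Read as Cy5 over Cy3, 5 of the 7 were positive and the median was 0.09, close to the 0.06 of all features. IQG1 was then at 0.31, BNI1 at 0.32, CDC10 at 0.09 and MLC1 at −0.41.

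Other wall glucan enzymes had mostly positive ratios as deposited. Of 12 on the array, 5 had values on both arrays, 2 on a single array and 5 on neither. On both arrays 4 of the 5 lay above and 0 below the median feature, against 29.3% of all features on each side. Their median was 0.80, while that of all features was −0.24. Limma called 0 of them, with 3 positive and 0 negative at an unadjusted p under 0.05, against 6.28% and 7.27% of all features. EXG1, the main exoglucanase gene, had 2.31 on array 1 and 0.55 on array 2. CRH1, which links chitin to glucan, had 1.33 and 1.17, and passed the rule of size on the positive side, as did 4.13% of all features. UTR2, encoding a relative of Crh1, averaged 0.39 ± 0.18 (SD, n = 2), and GAS3, of the glucanosyltransferase family, had opposite signs of −2.20 and 0.28. BGL2 encodes a protein of the same family as the Scw proteins and was added after its values were seen, beside the genes chosen by rule. Its ratio was 0.88 on array 1 and 0.72 on array 2, within the range of SIM1. Under the reading as Cy5 over Cy3, 4 of the 5 were negative and the median was −0.08, while that of all features was 0.06. EXG1 was then at −0.88, UTR2 at −0.13, CRH1 and BGL2 at −0.08 and GAS3 at 1.24.

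**Figure D3:**
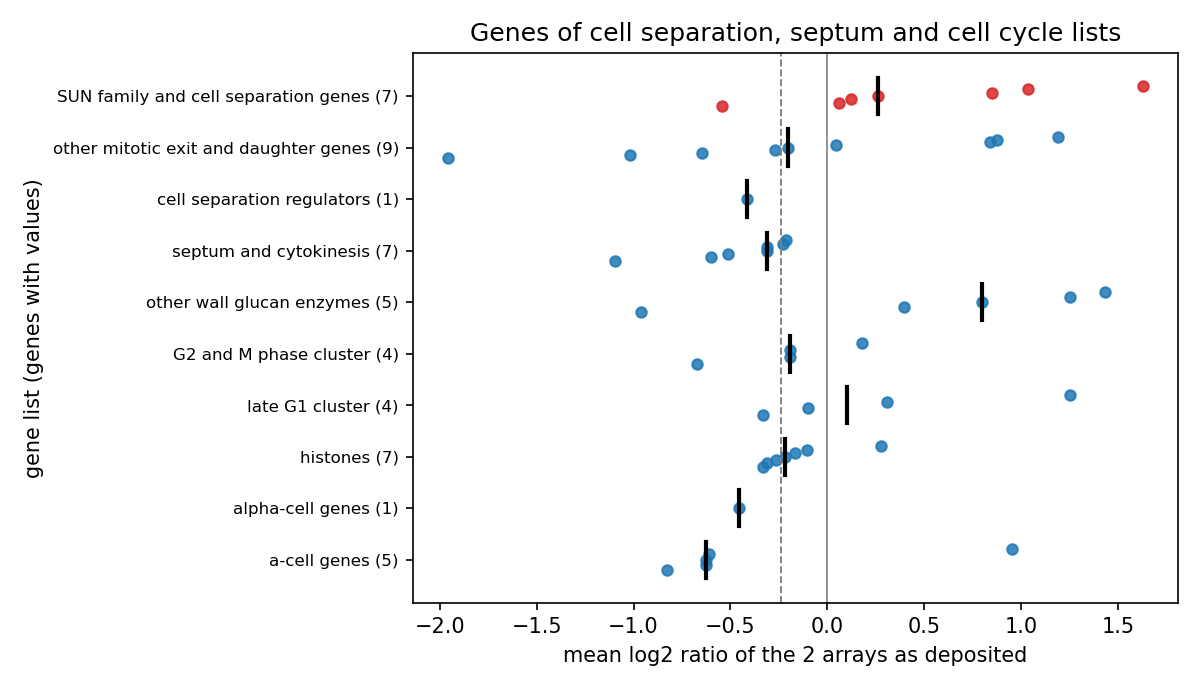
Mean log2 ratio of the 2 arrays for each gene with both values (dots), in the SUN family and cell separation genes (red) and in 9 lists of related or marker genes (blue), with the median of each list as a bar and that of all features, −0.24, as a dashed line. The number of genes with values stands in brackets. The wall glucan enzymes (median 0.80) and the SUN and cell separation genes (median 0.26) lie to the right of the dashed line, and the septum genes (median −0.31) lie at or left of it apart from MLC1 and CDC10.

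Cell cycle markers bear on genes that are made once per cycle, and few of them were measured. In the late G1 cluster 4 of 11 genes had both values, with a median of 0.10. MSB2, a membrane sensor gene, had 0.47 and 2.04 on the arrays, RNR1, of ribonucleotide reductase, averaged 0.31 ± 0.02, POL30, encoding the replication clamp PCNA, −0.10 ± 0.09 and the cyclin gene PCL1 −0.33 ± 0.18 (SD, n = 2 each). In the G2 and M phase cluster, also with 4 of 11 measured, the median was −0.19, between CDC20, an activator of the anaphase-promoting complex, at −0.67 ± 0.74 and the cyclin gene CLB1 at 0.18 ± 0.33 (SD, n = 2). The bud site gene BUD3 and the mitotic exit gene MOB1 both stood at −0.19. Histone genes, markers of S phase, had a median of −0.22 over 7 of 8 genes. Their highest were HTA1 at 0.28 ± 0.07 and HHT2 at −0.11 ± 0.36, and the lowest HHF2 at −0.31 ± 0.10 and HHF1 at −0.33 ± 0.35 (SD, n = 2 each). Of these phase markers limma called 0, and at an unadjusted p under 0.05 it gave MSB2 only, against 13.6% of all features. After centring, POL30, BUD3, MOB1 and HHT2, as well as the septin gene CDC10 above, turned to positive means between 0.01 and 0.12. With array 1 turned, the medians were 0.09 for the late G1 cluster, 0.07 for the G2 and M phase cluster and −0.24 for the histones. That of all features was then 0.06. The part of cell cycle phase in the ratios of DSE2, SCW11 or CTS1 was not tested.

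MID2 had no value on either array, and as both RNAs were mutant its ratio could not have checked the genotype. Of the genes specific to mating type a, which BY4741 expresses, 5 of 7 had both values. Their median was −0.62, with 1 above and 4 below the median feature on both arrays, against 29.3% of all features on each side. Limma called 0 of them. At an unadjusted p under 0.05 it gave 0 positive and 1 negative, MFA2, against 6.28% and 7.27% of all features. STE2, the alpha-factor receptor gene, had 2.02 and −0.12, while ASG7, AGA2 and the pheromone gene MFA2 averaged −0.61 ± 0.03, −0.63 ± 0.06 and −0.83 ± 0.21 (SD, n = 2). Of the 4 genes of mating type alpha only MF(ALPHA)2 had values, −0.98 and 0.07. With array 1 turned, the a-type genes had a median of −0.15, STE2 was at −1.07, and MF(ALPHA)2 was at 0.52. A ratio does not give the level of a transcript.

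Centring each array on its median subtracted the average of the array medians, −0.22, from each mean and so raised it. It left SUN4 at 1.85, SCW4 at 1.26 and SIM1 at 1.07, so that 3 of the 7 passed the rule of size. The same step shifted all features, and of the 2738 with both values the rule then took 162 positive and 35 negative, in place of 113 and 77. Read as Cy5 over Cy3 on both arrays, with array 1 turned, the means were 0.16 for SUN4, −0.26 for SCW4 and −0.23 for SIM1. Those of UTH1, DSE2 and SCW11 were then 0.22, 0.21 and 0.14, and that of NCA3 was −0.49. Under that reading 0 of the 7 passed limma or the rule of size, and the largest size among them was that of NCA3. SUN4, SCW4 and SIM1 thus carry large ratios only if the columns share the orientation of treated and untreated RNA.

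**Figure D4:**
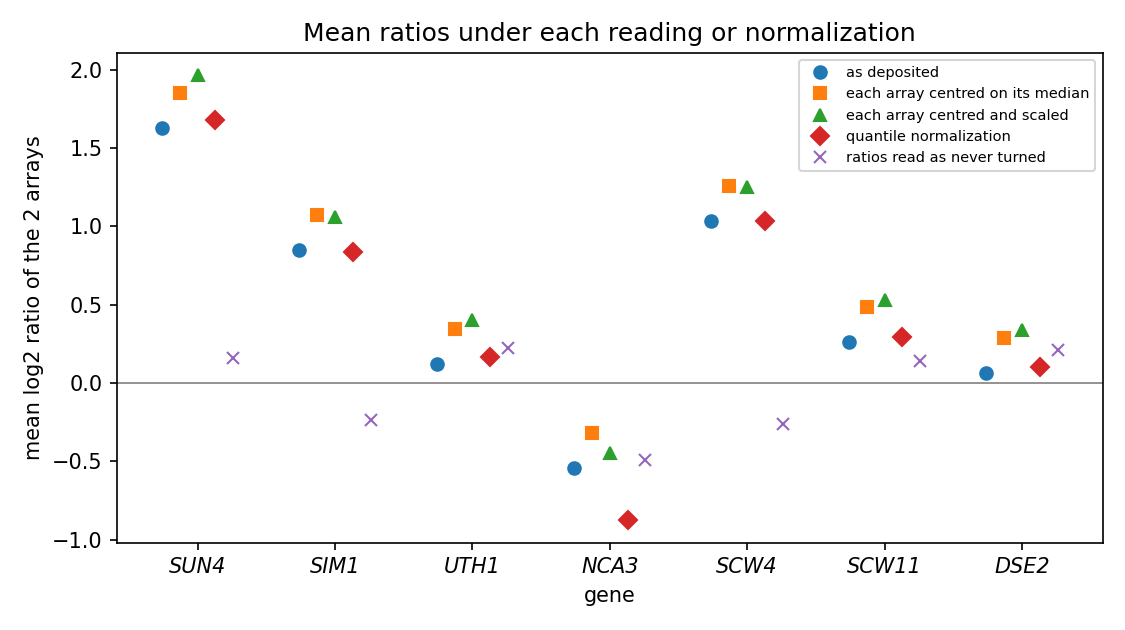
Mean log2 ratio of the 2 arrays for each measured gene as deposited, after 3 normalizations, and with the ratios read as Cy5 over Cy3 on both arrays (crosses). The normalizations keep the sign of each of the 7 genes, whereas the crosses lie between −0.49 and 0.22.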

How the data were processed

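The members and gene lists were chosen with earlier results of these data known. Per the labels' protocols, cDNA carrying Cy5 or Cy3 nucleotides was hybridised with swapped dyes. The authors deposited 1 value per feature and array, read as log2 ratios because 2 to the power of each value has 4 decimals (relative tolerance 3e-09). Not given in the sources used here are scanner, background correction, normalization, filter and direction, and signal over background is unknown. The medians of the deposited columns were −0.28 and −0.23 over 2832 and 3440 values. Ratios were used as deposited. The 2 control features were left out. Names came from a gene table of assembly R64, in which 5654 of 6207 features matched.

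The 2738 features with both values were fitted with limma 3.58.1 (lmFit, then eBayes; R 4.3.3; mean against 0, two-sided, Benjamini-Hochberg over all features, 1 residual degree of freedom). The fit was also run on simulated data with equal noise for every gene and array. That run does not measure its error on the arrays used here. Named were the 10 members, the 2 highest and 2 lowest of each list, the 3 features nearest to SUN4, and MID2; SWI5, CBK1, HYM1, SSD1 and BGL2 and the neighbours were added after their values were seen. Alternatives were centring, scaling, quantile normalization, robust moderation, other limits, ratios read as Cy5 over Cy3, and each array left out. A gene of the lists is not reported here. Plots used Python 3.11.15 and matplotlib 3.10.9.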

Additional observations from a re-analysis of the deposited data

How the results depend on the processing

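Under centring, scaling, quantile normalization and robust moderation limma called 0 features and 0 of the 7 measured genes, and at an unadjusted p under 0.05 it gave 371 and 3. Read as Cy5 over Cy3, limma called 3 features, KEL1, MSS51 and DBP8 (seen after the fact, with deposited ratios of −8.38, −5.20 and −5.52 on array 1), and 0 of the 7 genes. The rule of size then took 11 features in place of 190 and 0 of the 7 in place of 2, and SIM1 and SCW4 turned to −0.23 and −0.26. A mean of 1.5-fold with equal signs took 664 features. Of the 2738 features, 155 were at least 2-fold on array 2 alone and 577 on array 1 alone, with 2 and 3 of the 7 genes among them. Those were SUN4 and, negative, NCA3 on array 2, and SUN4, SCW4 and SIM1 on array 1. On single arrays UTH1 ranged from −0.10 to 0.34 and DSE2 from −0.15 to 0.27, both reversed without replicate 2. NCA3 ranged from −1.04 to −0.05. The positive share of the rule of size went from 59.5% to 82.2% with centring, 80.1% with scaling, 54.5% with quantile normalization and 36.4% when read as Cy5 over Cy3. Each ratio already sets treated against untreated RNA on the same array, and no further pairing was used, as both arrays form a single group.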

Other observations

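In the order of the gene table, 28 protein-coding genes lie within 2 places of the 7 measured genes, and 19 of them had both values. Their means ran from −1.55 to 0.51 with a median of −0.11. The rule of size took 0 of them in either direction, against 4.13% of all features on the positive and 2.81% on the negative side. Beside SUN4, the ribosomal protein gene RPL9B stood at −0.24 ± 0.31 and the chaperone gene YDJ1 at 0.22 ± 0.38 (SD, n = 2). Beside DSE2, CHS7, which helps chitin synthase leave the endoplasmic reticulum, stood at 0.12 ± 0.16 (SD, n = 2).

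SCW4 lies near BGL2, with 2 genes between, and SCW10 lies near GAS1, with 1 gene between. Genes of wall glucan enzymes thus stand near each other at both places. Of the genes between SCW4 and BGL2, PXR1 had a mean of 0.06 ± 0.38 (SD, n = 2), below those of SCW4 and BGL2, and YOR1 had no value. SCW10 itself had no value, so its neighbours are not among the 19 genes above. Those on the other side, UBP15 and the alcohol dehydrogenase gene ADH2, had means of 1.51 ± 0.21 and 1.66 ± 0.47 (SD, n = 2). Both passed the rule of size on the positive side.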
